A study of Mus musculus with 10 samples.

Results

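The genes described here carry or tune the sodium and chloride currents of muscle excitation. They are *Scn4a*, *Scn4b* and *Scn10a* (sodium channel subunits), *Clcn1* (a chloride channel), and *Atp1b1* and *Fxyd1* (subunits of the sodium pump). The rows of the count tables carrying these symbols were taken, 6 of 23337 genes, and all 6 were found. The mice were bred to ask whether E0, an enhancer in intron 1 of the titin gene *Ttn*, acts in cis or in trans, a question of *Ttn* alleles that gene counts do not address. Bulk RNA-Seq of poly(A) RNA was made from the left ventricle (LV) and from skeletal muscle (SkM) of the same 5 mice, giving 10 libraries. E0del/+ mice (replicates 1, 2 and 3) carried 1 copy of *Ttn* without E0, made by genome editing in zygotes, and WT mice (replicates 1 and 2) carried none. All were hybrids of C57BL/6 E0del/+ and 129SvEv WT parents, and none was treated. An age of 17 weeks is stated for E0del/+ mice used for LV RNA-Seq, and whether it covers the hybrid mice is not stated in the sources used here. The replicate number is also the batch number in the labels, and which skeletal muscle was taken is not given in the sources used here.

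Gene counts summed to between 11010021 and 17484873 per library. A count of 3, the limit that a count of 0 allows, is worth between 0.172 and 0.272 CPM (gene counts per 1000000 counts of the library), and such limits cover counting error only. The 10 most abundant genes took 27.2% to 29.5% of the counts in SkM and 12.5% to 14.5% in LV. For that reason a CPM is not on the same footing in the tissues. On CPM the median of all tested genes was 0.67 higher in LV on the log2 scale, whereas the fits use TMM scaling, in which that median was 0.02.

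One LV library stood apart. WT LV replicate 2 held 18473 CPM of *Myh4*, the myosin heavy chain of fast skeletal fibres, against 70.3 to 81.7 CPM in the other 4 LV libraries. All 9 fast skeletal muscle markers were raised in it, to a median of 23.4% of their mean SkM level, against 0.104% to 0.116% in the other LV libraries. It was therefore given apart, and LV comparisons were made on the other 4 mice. *Ttn* itself, whose counted exons lie outside the deleted intronic sequence and so do not check the deletion, was at 7959 CPM in WT LV replicate 1 and at 7737, 5560 and 6597 CPM in E0del/+ LV replicates 1, 2 and 3. In WT LV replicate 2 it was at 9344 CPM. In SkM it was at 24204 and 15856 CPM in WT and at 20092, 18854 and 13585 CPM in E0del/+. The fitted difference of *Ttn* between genotypes was −0.25 (SE 0.39) in LV and −0.17 (SE 0.24) in SkM on the log2 scale, with adjusted p = 1.00 in both by edgeR (quasi-likelihood F test, adjusted over all genes tested after Benjamini and Hochberg, as for every adjusted p given).

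Voltage-gated sodium channels open on depolarisation and carry the upstroke of the action potential. Each has a pore-forming alpha subunit, and small beta subunits tune its gating and placement. In skeletal fibres chloride channels then hold the membrane near rest, and its loss delays relaxation, known as myotonia, while in both muscles the sodium pump restores the gradients that the channels use.

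*Scn4a* encodes Nav1.4, the alpha subunit of the skeletal muscle sodium channel. The files place it on chromosome 11 from 106318593 to 106349390 on the minus strand, with 24 exons and 6598 exonic bases. In SkM it was at 934 and 762 CPM in WT replicates 1 and 2, and at 984, 1021 and 984 CPM in E0del/+ replicates 1, 2 and 3. In LV it was at 78.7 CPM in WT replicate 1 and at 89.2, 55.7 and 92.7 CPM in E0del/+ replicates 1, 2 and 3. The library kept apart, WT LV replicate 2, held 291 CPM. Every LV library thus lay below every SkM library, and the lone high LV value was the library with skeletal transcripts.

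*Scn4b* encodes the beta4 subunit, which binds alpha subunits through a disulphide bond. It lies on chromosome 9 from 45139042 to 45154061 on the plus strand, with 5 exons and 4244 exonic bases, and *Scn2b*, another beta subunit, ends 8971 bases before it with no gene of the files between. *Scn4b* was at 550 and 547 CPM in WT SkM replicates 1 and 2, and at 611, 566 and 678 CPM in E0del/+ SkM replicates 1, 2 and 3. In LV it was at 44.6 CPM in WT replicate 1 and at 43.4, 24.9 and 56.9 CPM in E0del/+ replicates 1, 2 and 3. The WT LV library kept apart held 216 CPM. The order of the tissues was that of *Scn4a*, and E0del/+ replicate 2 was the lowest LV library for both genes.

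**Figure D1:**
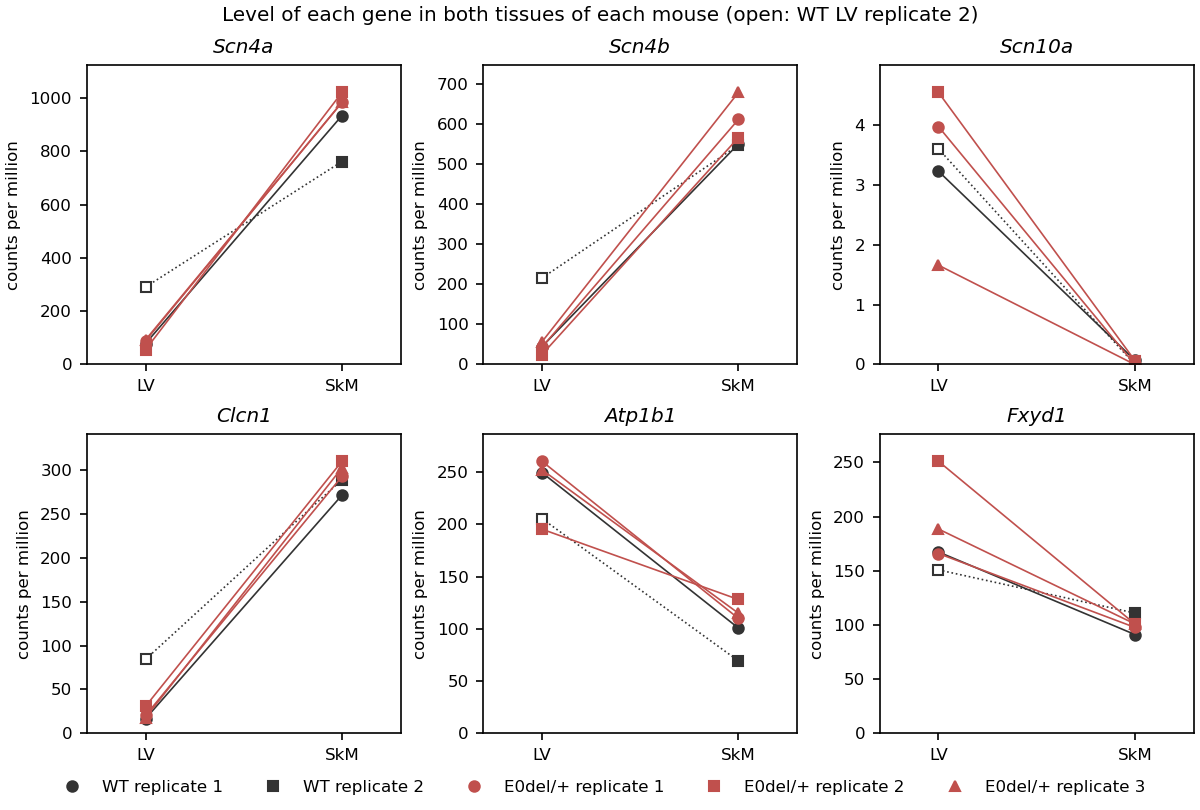
CPM (vertical axis, from 0) of the 6 genes in LV and SkM; a line joins the libraries of 1 mouse, black for WT and red for E0del/+, and the open square with a dotted line is WT LV replicate 2. *Scn4a*, *Scn4b* and *Clcn1* are high in SkM, *Scn10a* has counts almost only in LV, and WT LV replicate 2 lies above the other LV libraries for *Scn4a* (291), *Scn4b* (216) and *Clcn1* (84.3).

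In the fit paired by mouse over the 4 mice, both genes were lower in LV. *Scn4a* differed by −4.31 on the log2 scale (SE 0.25, 95% interval −4.89 to −3.72), with adjusted p = 8.29e-06 by edgeR. *Scn4b* differed by −4.52 (SE 0.26, 95% interval −5.14 to −3.90), with adjusted p = 8.64e-06 by edgeR. As a level in CPM within a mouse, LV *Scn4a* was 5.45% to 9.42% of the SkM level and *Scn4b* was 4.40% to 8.38%. In the mouse of WT replicate 2 these were 38.2% and 39.4%. The background of this comparison is wide, since 61.3% of the 13375 genes tested were called at an adjusted p under 0.05, 31.5% of the genes tested as higher and 29.8% as lower in LV. Of the 6 genes, 3 were called lower (*Scn4a*, *Scn4b* and *Clcn1*) and 2 higher (*Scn10a* and *Fxyd1*), and *Atp1b1* was not called. *Scn10a* passed the filter on low counts through its LV libraries alone. The CPM of the 4 LV and 4 SkM libraries did not overlap for any of the 6, as for 69.4% of all genes tested.

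Per length, as RPKM (the count over gene length in kilobases and over the library's total, on the scale of CPM), the make-up of the alpha subunits differed between the tissues. *Scn4a* made up 98.6% ± 0.508 (SD, n = 5) of the summed RPKM of 10 alpha subunits in SkM and 10.8% ± 1.07 (SD, n = 4) in LV. These shares are set within a library and do not depend on its scaling. In WT LV replicate 2 the share of *Scn4a* was 35.1%.

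*Scn7a*, which encodes a sodium-sensing relative of these channels, was at 23.8 to 45.5 CPM in the 4 LV libraries and at 1.14 to 12.7 CPM in SkM, a fitted difference of 1.78 (SE 0.47). *Scn2a1*, which encodes Nav1.2, was at 0.611 to 1.09 CPM in these LV libraries and at 3.20 to 13.4 CPM in SkM, a fitted difference of −3.80 (SE 0.31). Of the 9 other genes of alpha subunits and their relative *Nalcn* in the files 5 were tested; 2 were called higher and 1 lower in LV, and *Scn3a*, at 1.12 (SE 0.44), was not called at adjusted p = 0.0563.

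The share of *Scn4b* among the beta subunits per length overlapped between the tissues. *Scn4b* made up 34.9% ± 4.44 (SD, n = 5) of the summed RPKM of 4 beta subunits in SkM and 37.7% ± 7.04 (SD, n = 4) in LV. Per length, *Scn4b* was at 0.986 ± 0.106 (SD, n = 5) times *Scn4a* in SkM and at 0.821 ± 0.118 (SD, n = 4) times in LV, with ranges of 0.861 to 1.12 and 0.695 to 0.954. Within a mouse this ratio was lower in LV than in SkM in 4 of 4 mice, at 0.881 against 0.915 in WT replicate 1 and at 0.755 against 0.966, 0.695 against 0.861 and 0.954 against 1.07 in E0del/+ replicates 1, 2 and 3. In WT replicate 2 it was 1.15 in LV and 1.12 in SkM. Of the other beta subunit genes *Scn2b* (−1.30, SE 0.47) was called lower in LV and *Scn3b* (−0.18, SE 0.31) was not called. *Scn2b* was low in both tissues, at 0.436 to 1.23 CPM in the 4 LV libraries and 0.572 to 1.27 CPM in SkM. In WT replicate 1 its CPM was higher in LV, at 1.23 against 0.864.

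**Figure D2:**
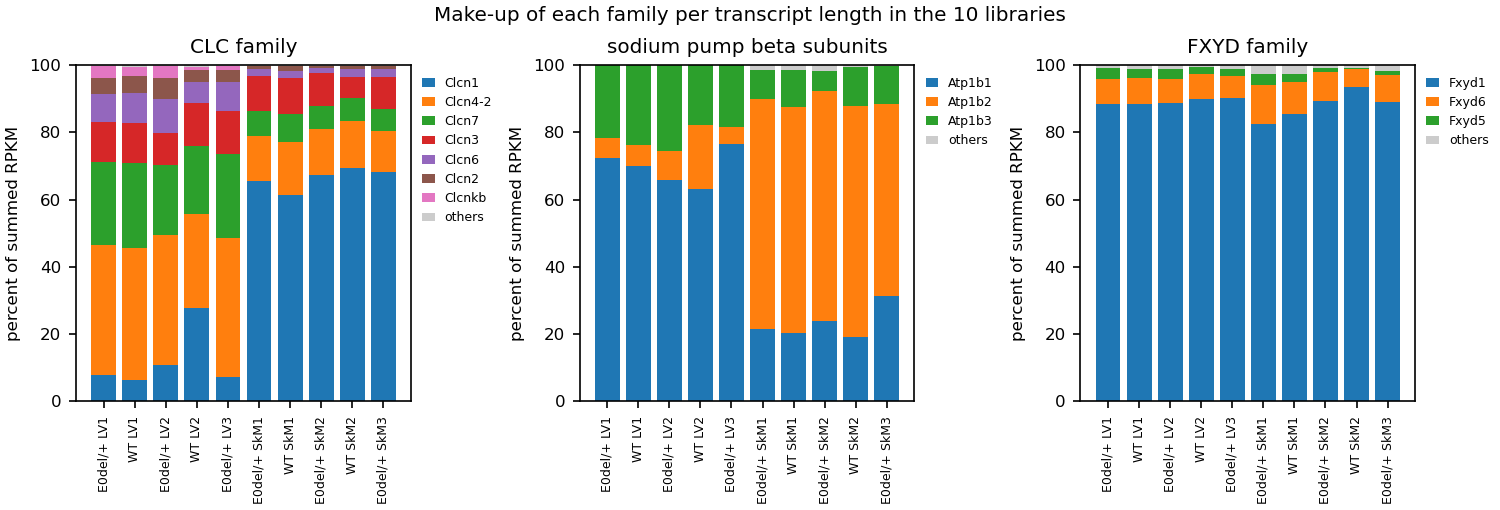
Share of each gene in the summed RPKM of its family (vertical axis, percent), 1 bar per library, with LV on the left and SkM on the right of each panel. *Clcn1* leads the CLC genes in SkM and *Clcn4-2* in LV (in WT LV replicate 2 by 27.9% against 27.8%), *Atp1b1* leads the pump's beta subunits in LV and *Atp1b2* in SkM, and *Fxyd1* leads its family in all 10 libraries.

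*Scn10a* encodes Nav1.8, best known from sensory neurons. It lies on chromosome 9 from 119608456 to 119719032 on the minus strand, with 28 exons and 6420 exonic bases. *Scn10a* had 42 counts in WT LV replicate 1 and 61, 50 and 19 counts in E0del/+ LV replicates 1, 2 and 3, or 3.23, 3.97, 4.54 and 1.66 CPM. The WT LV library kept apart had 40 counts, 3.60 CPM. In SkM it had 1 and 0 counts in WT replicates 1 and 2 and 0, 1 and 0 counts in E0del/+ replicates 1, 2 and 3.

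Low counts were thus seen in all 5 LV libraries, among them WT LV replicate 2, and next to none in SkM. Over the 4 mice 172 counts in LV stood against 2 in SkM, a ratio of 100 in CPM (exact conditional 95% interval 27.4 to 836, for counting error only). In E0del/+ replicates 1 and 3, whose SkM libraries had 0 counts, LV was at least 21.5-fold and 7.85-fold higher than 3 counts in the SkM library would be. The paired fit gave 5.71 on the log2 scale (SE 0.63) with adjusted p = 0.000174 by edgeR, a value that depends on the fit's prior count. *Scn10a* passed the filter on low counts through its LV libraries alone. The fit thus restates the counts and is no separate support for the difference. Per length *Scn10a* was a small part of the LV channels, 0.497% ± 0.240 (SD, n = 4) of the alpha subunits' summed RPKM. How the counting treated reads shared by related channels is not given in the sources used here.

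The level of *Scn10a* is given beside neuronal and conduction system markers. Of 7 neuron markers 5 or 6 had counts in each of the 4 LV libraries, summing to 12.8 CPM in WT replicate 1 and to 13.9, 25.0 and 13.4 CPM in E0del/+ replicates 1, 2 and 3. In SkM they summed to 1.13 to 2.81 CPM. Most of the LV sum was *Stmn2*, at 8.37 to 18.4 CPM, and *Uchl1*, at 2.77 to 4.90 CPM. These were the 2 neuron markers tested, and both were called higher in LV, by 2.22 (SE 0.30) for *Stmn2* and 3.46 (SE 0.46) for *Uchl1*. The other 5 were each under 1 CPM in the 4 LV libraries, with *Snap25* at 0 in 3 of them and at 0.0908 CPM in E0del/+ LV replicate 2, and *Nefl* at 0 in E0del/+ LV replicates 2 and 3. The 7 conduction system markers summed to 84.0 CPM in WT LV replicate 1 and to 79.9, 83.2 and 82.4 CPM in E0del/+ LV replicates 1, 2 and 3, led by *Irx3*, against 14.1 to 21.8 CPM in SkM. In E0del/+ LV replicate 3 *Scn10a* was lowest while that sum was not, and the part of either cell type in the *Scn10a* counts was not tested. In such bulk libraries a smaller share of a cell type and less RNA per cell cannot be told apart.

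*Clcn1* encodes ClC-1, the chloride channel of the skeletal muscle membrane. It lies on chromosome 6 from 42286685 to 42314656 on the plus strand, with 23 exons and 3545 exonic bases. In SkM it was at 271 and 289 CPM in WT replicates 1 and 2, and at 293, 310 and 302 CPM in E0del/+ replicates 1, 2 and 3. In LV it was at 16.7 CPM in WT replicate 1 and at 20.4, 30.8 and 18.0 CPM in E0del/+ replicates 1, 2 and 3. With skeletal transcripts, WT LV replicate 2 held 84.3 CPM. *Clcn1* had the tightest SkM values of the 3 genes high there, with a coefficient of variation of 5.02% over 5 libraries against 11.0% for *Scn4a* and 9.39% for *Scn4b*. The paired fit gave −4.47 (SE 0.14, 95% interval −4.80 to −4.13), adjusted p = 5.81e-07 by edgeR.

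The promoter of *Clcn1* is shown because this gene has the smallest adjusted p of the 6 and a start on which RefSeq and the files agree to the base. The 250 bases before that start lie at chr6:42286435-42286684 on the plus strand of GRCm38.p6 and overlap no exon in GENCODE M21. The capitals mark a match to the MEF2 motif, which begins 51 bases before the start and overlaps a TATAAA.
Clcn1: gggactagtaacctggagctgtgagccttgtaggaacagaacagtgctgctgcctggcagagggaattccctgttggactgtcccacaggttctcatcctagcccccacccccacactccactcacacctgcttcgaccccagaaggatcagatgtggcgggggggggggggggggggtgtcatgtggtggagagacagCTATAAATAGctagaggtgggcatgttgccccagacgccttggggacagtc
The same window of *Atp1b1*, at chr1:164458356-164458605 on the minus strand, is given for a pump gene with high counts in both muscles.
Atp1b1: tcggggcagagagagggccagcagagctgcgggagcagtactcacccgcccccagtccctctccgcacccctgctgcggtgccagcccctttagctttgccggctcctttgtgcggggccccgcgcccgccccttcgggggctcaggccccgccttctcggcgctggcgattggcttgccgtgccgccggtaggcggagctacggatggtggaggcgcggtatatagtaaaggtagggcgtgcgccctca
Motifs were searched on both strands in the 250 bases before 27025 RefSeq starts, 1 per gene. The MEF2 motif was in 3.01% of these windows, the CArG box in 1.40%, TATAAA in 13.0%, CATTCC (M-CAT) in 12.6%, TNAAGTG (NKX2-5) in 10.04% and CANNTG (E-box) in 66.0%. The *Clcn1* window also held 3 E-boxes, that of *Scn10a* held 1 CATTCC and that of *Fxyd1* held 1 TNAAGTG. In GENCODE M21, 186 of the 250 bases before the start of *Scn4a*, 229 of those of *Scn4b* and all 250 of those of *Scn10a* lie in exons, so these windows are not upstream sequence alone, and those of *Atp1b1* and *Fxyd1* overlap no exon. No match to the 6 motifs was found in the windows of *Scn4a*, *Scn4b* and *Atp1b1*. The RefSeq start of *Scn4b* lies 418 bases before the first exon of the files, and that of *Fxyd1* lies 803 bases inside the files' gene. A match is a description of letters in 1 window, and binding was not measured.

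Per length, *Clcn1* made up 66.3% ± 3.12 (SD, n = 5) of the summed RPKM of 9 CLC genes in SkM and 7.96% ± 1.95 (SD, n = 4) in LV. *Clcn4-2*, which encodes an endosomal exchanger of the same family, led in LV with 39.5% ± 1.38 (SD, n = 4) and was at 130 to 144 CPM there against 71.4 to 90.8 CPM in SkM, with a fitted difference of 0.12 (SE 0.12) that was not called. Other chloride genes divided between the tissues. *Ano5*, an anoctamin of skeletal muscle, was at 1.23 to 6.11 CPM in the 4 LV libraries, at 44.0 CPM in WT LV replicate 2 and at 172 to 288 CPM in SkM, a fitted difference of −7.14 (SE 0.54). *Slc12a2*, the inward sodium-potassium-chloride cotransporter NKCC1, differed by −2.57 (SE 0.13).

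The outward potassium-chloride cotransporters went the other way. *Slc12a7* (KCC4) was at 480 to 659 CPM in the 4 LV libraries and at 7.26 to 27.9 CPM in SkM, a fitted difference of 4.20 (SE 0.19), and *Slc12a4* (KCC1) differed by 2.42 (SE 0.14). Of the 24 chloride channel and transporter genes in the files 21 were tested; 10 were called higher in LV, 5 lower and 6 were not called. Their median difference was 0.63 beside 0.02 over all genes tested. All 4 splicing regulators that act on *Clcn1* pre-mRNA were called lower in LV, among them *Mbnl1* (−2.09, SE 0.18), *Mbnl2* (−1.08, SE 0.21) and *Celf1* (−0.61, SE 0.16), although the mean CPM of *Celf1* was 1.03 times as high in LV as in SkM. Gene counts do not show the splicing of *Clcn1*.

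*Atp1b1* encodes the beta1 subunit of the sodium pump, which the catalytic alpha subunit needs to reach the membrane. It lies on chromosome 1 from 164437267 to 164458355 on the minus strand, with 6 exons and 2422 exonic bases. Exons of *Nme7* on the other strand overlap 30 of these bases as the files annotate them, and 417 as GENCODE M21 does. The libraries do not mark strand, so reads there cannot be told apart. *Atp1b1* was at 249 CPM in WT LV replicate 1 and at 260, 195 and 252 CPM in E0del/+ LV replicates 1, 2 and 3. The WT LV library kept apart held 205 CPM. In SkM it was at 101 and 69.3 CPM in WT replicates 1 and 2, and at 110, 128 and 115 CPM in E0del/+ replicates 1, 2 and 3. Every LV library lay above every SkM library in CPM.

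The size of that gap depended on the scaling. In CPM the LV level was 1.52 to 2.48 times the SkM level of the same mouse (higher in 4 of 4 mice), and with TMM scaling the fitted difference was 0.42 (SE 0.20, 95% interval −0.03 to 0.88) with adjusted p = 0.0949 by edgeR, not called. The call depended on the processing. Scaled by total counts it was 1.07 with adjusted p = 0.000443, beside a median of 0.67 over all genes and 81.9% of the called genes higher in LV (51.3% with TMM). Without E0del/+ replicate 2, the mouse whose tissues were closest, the difference was 0.67 with adjusted p = 0.00140. It was also called without the pairing (0.42, adjusted p = 0.0476) and with the mouse of WT replicate 2 (0.51, adjusted p = 0.0397), and the adjusted p over 10 alternatives ran from 0.000443 to 0.324.

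The make-up per length needs no such scaling. *Atp1b1* made up 71.2% ± 4.45 (SD, n = 4) of the summed RPKM of 4 beta subunits in LV and 23.3% ± 4.87 (SD, n = 5) in SkM, without overlap. *Atp1b2*, the beta2 subunit, made up 6.54% ± 1.57 (SD, n = 4) and 66.0% ± 5.02 (SD, n = 5). *Atp1b2* was at 20.5 to 31.8 CPM in the 4 LV libraries, at 75.6 CPM in WT LV replicate 2 and at 255 to 446 CPM in SkM, a fitted difference of −4.49 (SE 0.15) with adjusted p = 7.59e-07 by edgeR. *Atp1b3*, the beta3 subunit, was not called (0.16, SE 0.11), and *Atp1b4*, at 0 to 0.260 CPM in the 4 LV libraries and 1.48 to 15.7 CPM in SkM, was lower in LV (−6.96, SE 0.47).

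*Fxyd1* encodes phospholemman, a small membrane protein that binds the pump and restrains it until phosphorylated. It lies on chromosome 7 from 31051678 to 31055656 on the minus strand, with 9 exons and 712 exonic bases, the shortest of the 6. *Fxyd1* was at 167 CPM in WT LV replicate 1 and at 166, 251 and 189 CPM in E0del/+ LV replicates 1, 2 and 3. The WT LV library kept apart held 151 CPM. In SkM it was at 91.2 and 111 CPM in WT replicates 1 and 2, and at 97.8, 101 and 101 CPM in E0del/+ replicates 1, 2 and 3. E0del/+ LV replicate 2 was the highest library for *Fxyd1* and the lowest for *Atp1b1* among the LV libraries.

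The paired fit gave 0.31 for *Fxyd1* (SE 0.11, 95% interval 0.06 to 0.56), adjusted p = 0.0375 by edgeR, with LV above SkM in CPM in 4 of 4 mice. Scaled by total counts the difference was 0.96 with adjusted p = 0.000338, beside the median of 0.67 over all genes. The call did not hold without E0del/+ replicate 1 (0.35, adjusted p = 0.113), without E0del/+ replicate 3 (0.31, adjusted p = 0.109) or without WT replicate 1 (0.29, adjusted p = 0.157). It was also lost without the filter on low counts (adjusted p = 0.0687), without the pairing (0.0641 as adjusted p) and with the mouse of WT replicate 2 (0.20, adjusted p = 0.218); over 10 alternatives the adjusted p ran from 0.000338 to 0.218. Per length *Fxyd1* made up 89.0% ± 0.837 (SD, n = 4) of the summed RPKM of 7 FXYD genes in LV and 88.0% ± 4.29 (SD, n = 5) in SkM. Of the 6 other FXYD genes 4 were tested; *Fxyd5* (0.92, SE 0.31) was called higher in LV, and *Fxyd6* (−0.15, SE 0.14) and *Fxyd2* (−0.09, SE 0.59) were not called.

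**Figure D3:**
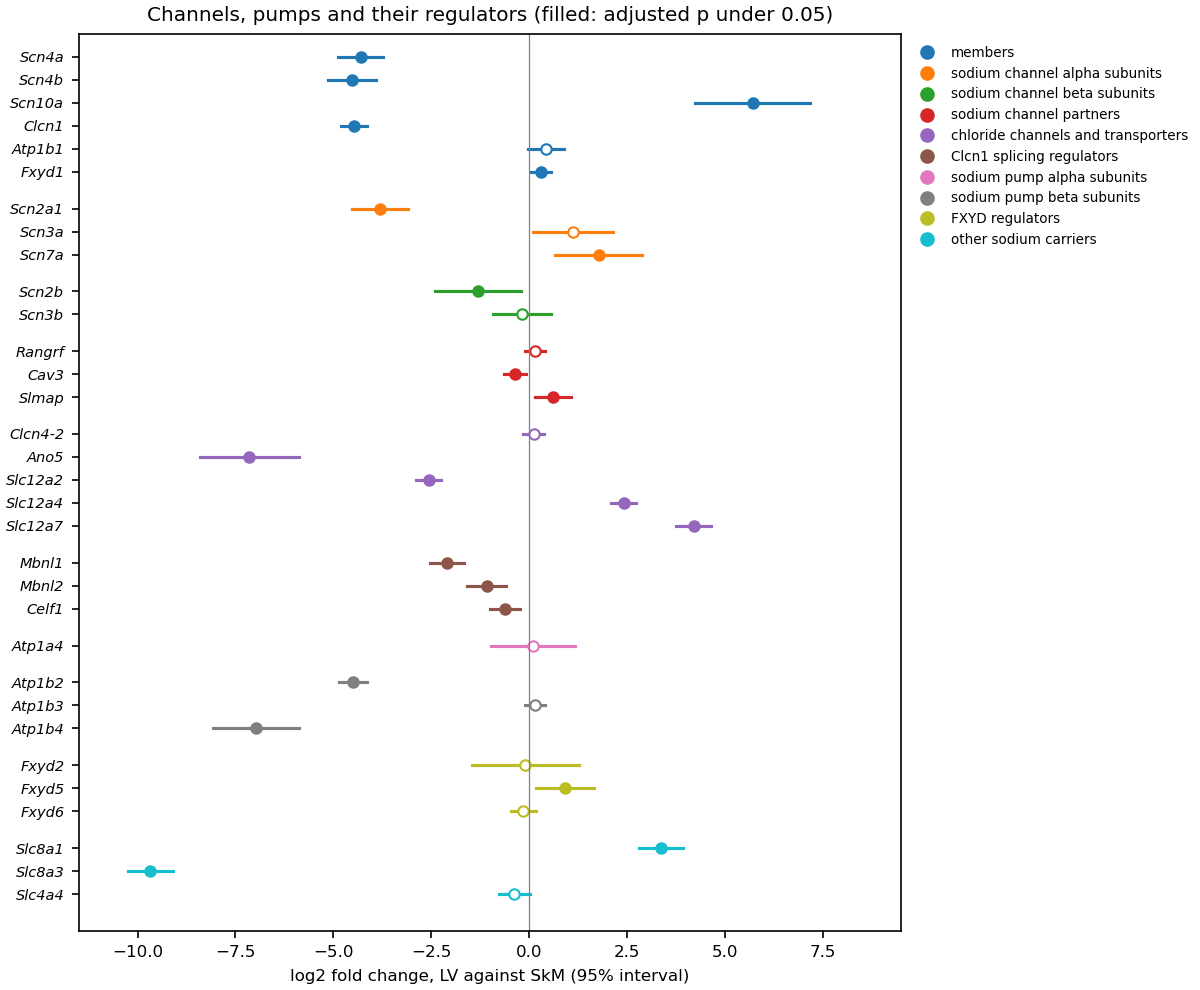
Fitted log2 fold change of LV against SkM (horizontal axis, above 0 where LV is higher) with its 95% interval, for the 6 genes and others of each pathway list among its more abundant genes; filled points have an adjusted p under 0.05. *Scn10a* (5.71) and *Slc8a3* (−9.67) are the furthest to either side of 0 among the genes shown, and *Atp1b1* (0.42) and *Fxyd1* (0.31) lie close to it.

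Across all pathway lists 61 of 73 other genes were tested, of which 20 were called higher in LV, 21 lower and 20 were not called, with a median difference of 0.10 beside 0.02 over all genes. Among the 13 channel partners 12 were tested, with 3 higher, 5 lower and 4 not called. *Cav3*, the caveolin of muscle, was lower in LV (−0.36, SE 0.12), although its mean CPM was 1.22 times as high in LV as in SkM. *Slmap* was higher (0.62, SE 0.20) and *Rangrf* (0.16, SE 0.11) was not called. Among the 6 other sodium carriers 3 were called higher and 1 lower. *Slc8a1*, the cardiac sodium-calcium exchanger, was higher (3.37, SE 0.24). *Slc8a3*, the exchanger of skeletal muscle, was at 0.0768 to 0.349 CPM in the 4 LV libraries, at 27.5 CPM in WT LV replicate 2 and at 82.3 to 95.5 CPM in SkM (−9.67, SE 0.24), and *Slc4a4* (−0.37, SE 0.17) was not called.

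Levels of the 6 genes can be ordered per length. In SkM the mean RPKM was 142 ± 15.6 for *Scn4a*, 141 ± 10.1 for *Fxyd1* and 139 ± 13.1 for *Scn4b* (SD, n = 5 each), which did not differ beyond their spread. *Clcn1* followed at 82.7 ± 4.15, *Atp1b1* at 43.2 ± 9.11 and *Scn10a* at 0.00432 ± 0.00592 (SD, n = 5 each). In the 4 LV libraries *Fxyd1* led at 271 ± 56.1 RPKM, before *Atp1b1* at 98.8 ± 12.3 (SD, n = 4 each). *Scn4a* at 11.99 ± 2.53 and *Scn4b* at 9.999 ± 3.11 RPKM (SD, n = 4 each) had overlapping ranges, with *Scn4b* the lower in each of the 4 libraries. By their means *Clcn1* at 6.06 ± 1.80 and *Scn10a* at 0.522 ± 0.195 came last. In E0del/+ LV replicate 2, however, *Clcn1* at 8.69 RPKM lay above *Scn4a* (8.44) and *Scn4b* (5.86). RPKM within a tissue orders these genes, and between tissues it carries the same scaling shift as CPM.

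The genes nearest to each in pattern were found from log2 CPM with TMM scaling, centred on the mean over 9 libraries, as the root mean square difference over 14815 genes. *Scn4a* and *Scn4b* were each among the other's 3 nearest genes, at 0.205. Nearest to *Scn4a* were *Abcd2* (0.200), *Scn4b* and *Sox6* (0.207), and nearest to *Scn4b* were *Jph1* (0.204), *Scn4a* and *Aurka* (0.219). *Clcn1* was nearest to *Sema6c* (0.105), *Kcnab1* (0.166) and *Ksr1* (0.187), and stood at 0.430 from *Scn4a*. For *Atp1b1* they were *Lamp2* (0.113), *Rassf8* (0.127) and *Rras2* (0.135), and for *Fxyd1* they were *Uqcrb* (0.0791), *Isca2* (0.0797) and *Cox7c* (0.1001). *Scn10a* was nearest to *D630003M21Rik* (0.141) and *Cacna1g* (0.323).

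Skeletal transcripts in LV are given beside the LV values of the 3 genes high in SkM. In the 4 LV libraries other than WT replicate 2 the fast markers summed to 217 CPM in WT replicate 1 and to 254, 238 and 243 CPM in E0del/+ replicates 1, 2 and 3, with all 9 present and *Myh4* the most abundant, against 167428 to 181771 CPM in SkM. As a share of the mean CPM of the 5 SkM libraries, the markers had a median of at most 0.116% and a highest value of 0.691% in these LV libraries. On the same base *Scn4a* was at 5.94% to 9.89%, *Scn4b* at 4.21% to 9.63% and *Clcn1* at 5.71% to 10.5%. The part of skeletal transcripts in the LV values of the 3 genes was not tested. In WT LV replicate 2 the markers summed to 41970 CPM. There the rise over the mean of the other LV libraries, as a share of the SkM mean, was 22.6% for *Scn4a*, 29.3% for *Scn4b* and 21.4% for *Clcn1*, beside 16.7% to 24.7% for the fast markers. *Atp1b1* and *Fxyd1* were lower in that library than the mean of the other LV libraries (239 and 193 CPM).

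**Figure D4:**
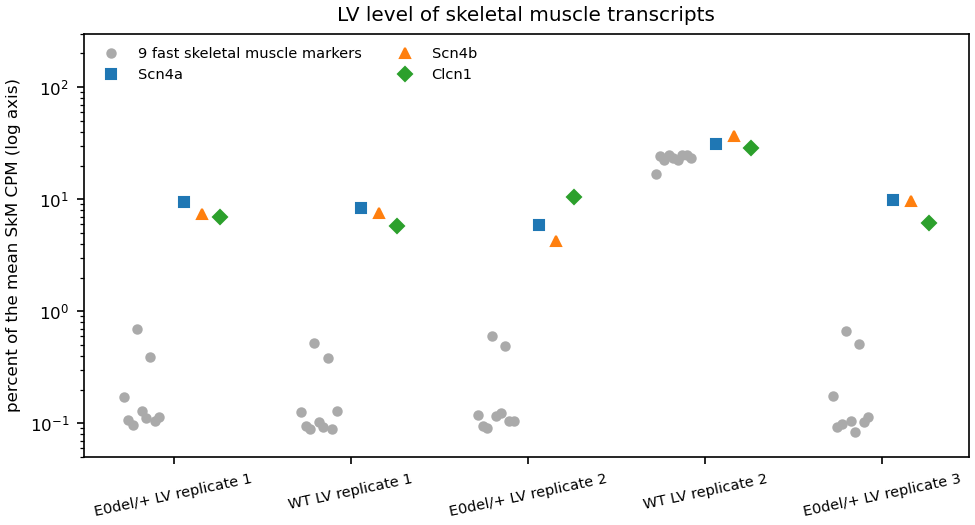
CPM in each LV library as a percent of the mean of the 5 SkM libraries (vertical axis, logarithmic), for 9 fast skeletal muscle markers (grey) and for *Scn4a*, *Scn4b* and *Clcn1*. In 4 libraries no marker lies above 0.691% and none of the 3 genes lies as low, and in WT LV replicate 2 the markers reach 16.8% to 25.1%.

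With WT LV replicate 2 apart, the genotype comparison in LV sets 3 E0del/+ libraries against 1 WT library. The WT value lay inside the E0del/+ range for *Scn4a*, *Scn4b*, *Scn10a*, *Atp1b1* and *Fxyd1*, and 1.23 CPM below the lowest E0del/+ library for *Clcn1*. None of the 6 was called, with 0% of 13890 genes called by edgeR (0 genes, also 0 by DESeq2's Wald test) and 0.749% (104 genes) at an unadjusted p under 0.05. The fitted difference of *Clcn1* was 0.44 (SE 0.27, 95% interval −0.16 to 1.05) and that of *Fxyd1* 0.26 (SE 0.27, 95% interval −0.34 to 0.86). For *Scn4a* it was 0.04 (SE 0.33), for *Scn4b* −0.06 (SE 0.40), for *Scn10a* 0.06 (SE 0.51) and for *Atp1b1* −0.06 (SE 0.30), each with adjusted p = 1.00 by edgeR. Leaving out E0del/+ replicate 1, 2 or 3 gave 4, 4 and 3 called genes, none of them among the 6. The direction of *Scn4a*, *Scn4b*, *Scn10a* and *Atp1b1* also depended on which library was left out, from −0.14 to 0.28 for *Scn4a*, from −0.41 to 0.24 for *Scn4b*, from −0.11 to 0.35 for *Scn10a* and from −0.16 to 0.11 for *Atp1b1*.

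With the WT library that held skeletal transcripts, the same fit gave −1.30 for *Scn4a*, −1.72 for *Scn4b* and −1.26 for *Clcn1*, none of them called (adjusted p = 0.997 by edgeR for each; over 11 alternatives the adjusted p of *Scn4b* ran from 0.736 to 1.00 and that of the others from 0.997 to 1.00). In batch 1, which holds WT LV replicate 1, E0del/+ CPM was 1.13 times WT for *Scn4a*, 0.972 times for *Scn4b*, 1.23 times for *Scn10a*, 1.22 times for *Clcn1*, 1.04 times for *Atp1b1* and 0.991 times for *Fxyd1*. In batch 2, whose WT library is WT LV replicate 2, these were 0.191, 0.115, 1.26, 0.365, 0.951 and 1.66 times. Batch 3 holds E0del/+ libraries alone. E0del/+ LV replicate 2, which was lowest for *Scn4a*, *Scn4b* and *Atp1b1* and highest for *Clcn1*, *Scn10a* and *Fxyd1* among the 4 libraries, also held the most endothelial transcripts. All 4 endothelial markers had counts, summing to 1855 CPM there against 1342 in WT LV replicate 1 and 1236 and 1085 in E0del/+ LV replicates 1 and 3, led by *Cdh5*. The fibroblast markers summed to 962 CPM there against 767, 708 and 489 CPM, led by *Dcn*, and their part in the differences was not tested.

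In SkM 3 E0del/+ libraries stood against 2 WT libraries. *Atp1b1* was at 110 to 128 CPM in E0del/+ and at 69.3 and 101 CPM in WT, so that every E0del/+ library lay above every WT library, as for 4.14% of the 13154 genes tested. The same held for *Scn4a*, *Scn4b* and *Clcn1*. *Fxyd1*, at 97.8 to 101 CPM in E0del/+ and 91.2 and 111 CPM in WT, overlapped, and *Scn10a* had too few counts to be tested. None of the 5 genes tested was called, with 0% of all genes called by edgeR (0 genes, also 0 by DESeq2's Wald test) and 0.867% (114 genes) at an unadjusted p under 0.05.

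The fitted difference of *Atp1b1* was 0.50 (SE 0.16, 95% interval 0.09 to 0.91), with unadjusted p = 0.0255 and adjusted p = 1.00 by edgeR. Within batch 1 E0del/+ *Atp1b1* was 1.09 times WT and within batch 2 it was 1.85 times. With the batch as a block the difference was 0.51, and leaving out each library in turn gave 0.36 to 0.65. *Scn4a* differed by 0.25 (SE 0.14), at 1.05 times WT in batch 1 and 1.34 times in batch 2. *Scn4b* differed by 0.17 (SE 0.16), at 1.11 and 1.03 times, *Clcn1* by 0.10 (SE 0.16), at 1.08 and 1.07 times, and *Fxyd1* by −0.03 (SE 0.19), at 1.07 and 0.910 times. The direction of *Clcn1* turned without WT replicate 1 (−0.057), and that of *Fxyd1* turned without E0del/+ replicate 1 (0.02) and without WT replicate 2 (0.27). With the batch as a block 1 gene, *Eif2s3y* on the Y chromosome, was called, and none of the 5. In WT SkM replicates 1 and 2 *Eif2s3y* was at 4.82 and 37.4 CPM. Among the E0del/+ SkM libraries it was at 0.123, 0.267 and 35.5 CPM in replicates 1, 2 and 3. WT SkM replicate 1 held its *Eif2s3y* counts beside 397 CPM of *Xist*, and their source was not tested.

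**Figure D5:**
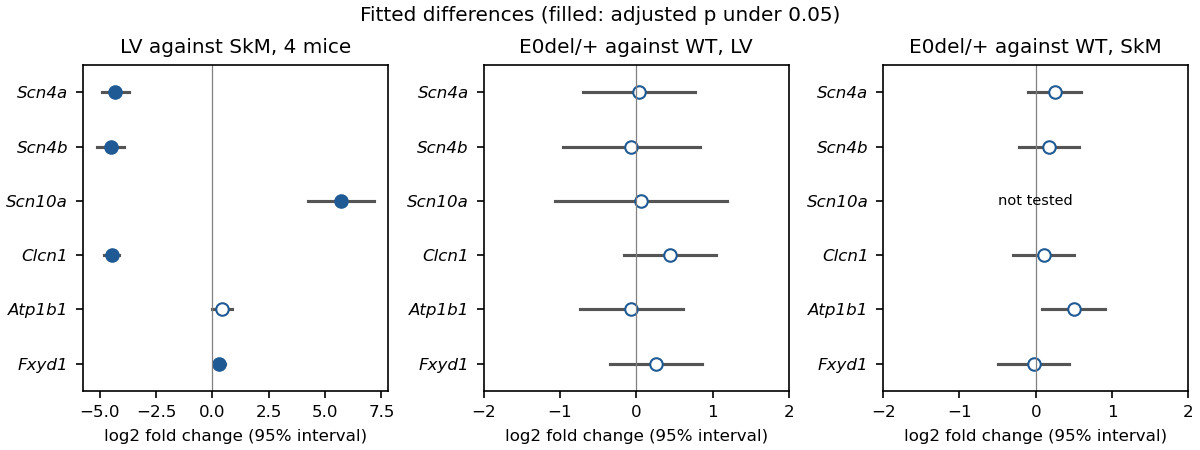
Fitted log2 fold change with its 95% interval (horizontal axis) for each of the 6 genes, in LV against SkM over 4 mice and in E0del/+ against WT within LV (3 against 1 library) and within SkM (3 against 2); filled points have an adjusted p under 0.05. Only the tissue comparison holds filled points, and in SkM *Atp1b1* (0.50) is the 1 gene whose interval lies off 0.

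WT SkM replicate 2 was the lowest SkM library for *Scn4a*, *Scn4b* and *Atp1b1* and the highest for *Fxyd1*, and was also lowest in slow fibre markers. All 6 had counts in every SkM library and summed to 200.001 CPM there (*Atp2a2* the most abundant), against 1563 CPM in WT replicate 1 and 2266, 2820 and 397 CPM in E0del/+ replicates 1, 2 and 3 (*Myh7* the most abundant in these 4). *Atp1b1* was at its highest where that sum was highest, in E0del/+ SkM replicate 2, but E0del/+ replicate 3 had a low sum and 115 CPM of *Atp1b1*. The part of fibre type in the *Atp1b1* values was not tested. Endothelial markers were lowest in WT SkM replicate 2 too, at 97.9 CPM against 167 to 213 CPM in the other SkM libraries.

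Whether genotype acted differently in the tissues was tested as an interaction over 9 libraries, in which 0% of 14815 genes were called (0 genes by edgeR and by DESeq2's Wald test, 129 at an unadjusted p under 0.05). For *Atp1b1* the difference between the tissues' genotype effects was −0.53 (SE 0.35), for *Clcn1* 0.37 (SE 0.33) and for *Fxyd1* 0.32 (SE 0.33). For *Scn4a* it was −0.18 (SE 0.46), for *Scn4b* −0.20 (SE 0.58) and for *Scn10a* 0.49 (SE 1.70). The value of *Scn10a* is not informative, since its SkM counts were too few to be tested there. For none of the other genes was a difference between the tissues' genotype effects detectable at this number of mice.

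Ventricle markers followed the labelled tissues, with 8 of 8 called higher in LV. The 8 ventricle markers summed to 81206 to 94484 CPM in the 4 LV libraries, led by *Myh6*, and to 64982 CPM in WT LV replicate 2, against 175 to 2208 CPM in SkM. The 4 atrial markers summed to 222 to 594 CPM in the 4 LV libraries, almost all of it *Nppa*, and to 5.42 to 17.2 CPM in SkM. Of the 3 atrial markers tested *Nppa* was called higher in LV (6.29, SE 0.56), *Sln* lower (−3.44, SE 0.36) and *Myl4* was not called. Schwann cell markers, led by *Pmp22*, summed to 65.5 to 95.2 CPM in these LV libraries and 29.4 to 152 CPM in SkM, with 2 of 6 called lower in LV and 4 not called. All 4 endothelial markers (median difference 2.14) and all 4 fibroblast markers (median difference 1.77) were called higher in LV. Of the 7 conduction system markers 6 were called higher in LV and 1 was not called. Adipocyte markers ran from 29.3 to 1319 CPM over the SkM libraries, led by *Cfd* in 4 of 5, and from 120 to 262 CPM in the 4 LV libraries, led by *Fabp4*, with 372 CPM in WT LV replicate 2. These sums overlapped, but 4 of the 5 adipocyte markers were called lower in LV, with a median difference of −5.64 over the 5, and *Fabp4* was not called (0.16, SE 0.50). Of the blood markers *Alas2* alone had counts, at 2.52 to 31.6 CPM.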

How the data were processed

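RNA of LV and SkM from 5 mice was sequenced as unstranded poly(A) libraries, 10 in all. The authors deposited a count of reads per gene for each library, whole numbers with no scaling, after alignment for which their notes name STAR and mm10; the counting tool, annotation, versions and treatment of reads with several matches are not given in the sources used here. The authors also deposited RPKM, the count over summed exon length and the library's total, and this was checked from the values. CPM was computed from the counts. Fits used edgeR 4.0.16 with limma 3.58.1 in R 4.3.3: TMM scaling, filterByExpr, the quasi-likelihood test and Benjamini-Hochberg adjustment over all genes tested at 0.05. DESeq2 1.42.0 gave an alternative. The fitting code was tested on simulated data. Tables were made in Python 3.11.15 with pandas 2.3.3 and scipy 1.17.1.

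LV and SkM were compared within 4 mice with mouse as a block, and genotypes within each tissue without a block. WT LV replicate 2 was left out of the fits because of its skeletal transcripts, and a lone WT LV library was assumed to vary like the E0del/+ libraries. Mice were matched between tissues from the labels. As a check, log2 deviations from the genotype's mean were correlated across genes between the WT and E0del/+ SkM libraries of a batch. The correlation was 0.550 in batch 1 and 0.336 in batch 2. The deviations of 2 WT libraries are equal and opposite, so these are not separate checks. Correlations of deviations from the tissue's mean between tissues of 1 mouse ran from −0.157 to 0.159. These give the matching by mouse no support of their own, and genes are not independent replicates. Alternatives were other scaling, no filter, DESeq2's Wald test, blocks, WT LV replicate 2 added, and each library left out in turn.

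The genes and lists were chosen with earlier results of these data known. Named from each pathway list were genes among the 3 highest in mean RPKM in LV or SkM, over all 10 libraries; from each marker list its most abundant gene and its sum; and for each of the 6 genes the 3 nearest in pattern. Some genes that this rule takes are not used here. *Uchl1*, *Sln*, *Myl4*, *Snap25*, *Nefl*, *Eif2s3y* and the genes named in the closing observations were chosen after their values were seen. Promoters came from RefSeq (GRCm38.p6), 6 of 6 matched by symbol, and exon overlaps from GENCODE M21, with that of *Atp1b1* and *Nme7* also from the files. Exact intervals and limits of 3 counts cover counting error only.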

Additional observations from a re-analysis of the deposited data

Results flagged for a closer look

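*Atp1b1* in E0del/+ LV replicate 2, at 195.3 CPM, lay far below the other 3 LV libraries, by 0.833 of the range of the 4. It was the 1 such value among 12 groups of libraries, and chance gives about 1 in 20 groups. WT LV replicate 2, which no fit in the report used unless stated, lay above the 4 other LV libraries for *Scn4a* (290.8 CPM), *Scn4b* (215.7 CPM) and *Clcn1* (84.3 CPM). It also lay above all 9 other libraries for *Tubb3*, a tubulin of neurons (63.3 CPM), and *Scn8a*, which encodes Nav1.6 (5.76 CPM). The source of these values was not tested.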

How the results depend on the processing

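Between LV and SkM, the direction and call of *Scn4a* (−4.41 to −3.66), *Scn4b* (−4.66 to −3.87), *Scn10a* (5.18 to 6.32) and *Clcn1* (−4.54 to −3.81) held in all 10 alternatives. For *Scn10a*, which passed the filter through LV alone, this adds nothing beyond its counts. *Atp1b1*, not called in the report, was called with total counts (1.07), without the block (0.42), with the mouse of WT replicate 2 (0.51) and without E0del/+ replicate 2, and ran from 0.29 to 0.67 as each mouse was left out. *Fxyd1* lost its call without the filter (0.32), without the block (0.31), with the mouse of WT replicate 2 (0.20) and without E0del/+ replicate 1, E0del/+ replicate 3 or WT replicate 1, with a range of 0.29 to 0.35 over the mice left out. The number of genes called was 6895 to 7931 with 1 mouse fewer.

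Between genotypes in LV no member was called in any of 11 alternatives. With WT LV replicate 2, *Scn4a* (−1.30), *Scn10a* (−0.094), *Clcn1* (−1.26) and *Atp1b1* (0.0062) changed sign. With that library and the batch as a block, *Scn4a* (−1.22) and *Clcn1* (−0.72) changed sign and 5 genes were called (*Mstn*, *Kdm5d*, *Eif2s3y*, *Uty* and *Ddx3y*). Without that library the block left no residual degrees of freedom, and WT replicate 1 could not be left out. With *Xist* above 100 CPM as a block, chosen after the data were seen, *Scn4a* was −0.14 and 3 genes were called (*Tfrc*, *Cyp26b1* and *Lgals4*). Leaving out an E0del/+ library gave 3 to 4 called genes, −0.14 to 0.28 for *Scn4a*, −0.41 to 0.24 for *Scn4b*, −0.11 to 0.35 for *Scn10a* and −0.16 to 0.11 for *Atp1b1*. The genes were *Kdm5d*, *Eif2s3y*, *Uty* and *Ddx3y* without replicate 1, *Col14a1*, *Csdc2*, *Acta2* and *Cyp26b1* without replicate 2, and *Tfrc*, *Cyp26b1* and *Lgals4* without replicate 3.

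In SkM no member was called in any of 12 alternatives. The batch as a block gave 1 called gene, *Eif2s3y*. *Fxyd1* changed sign with the *Xist* block (0.0354) and ran from −0.27 to 0.27 as each library was left out, and *Clcn1* from −0.057 to 0.29. The interaction gave 0 called genes by edgeR in the report (129 at an unadjusted p under 0.05) and 0 in all 9 alternatives, DESeq2 among them. The causes of these changes were not tested. Depth limits *Scn10a* most, with 0 or 1 count in each SkM library.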

Other observations

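WT LV replicate 2 held 49 genes at 5 CPM or more and over 5 times the level of every other library, among them *Tubb2b* (91.2 CPM), *Tubb3* and *Lin28a* (57.5 CPM). *Sox2*, a transcription factor of stem cells, was at 22.1 CPM there. WT SkM replicate 1 had 4 such genes and the other 8 libraries had 0.

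Among the sex-linked genes *Xist* was at 588, 518 and 806 CPM in the LV libraries of E0del/+ replicate 1, WT replicate 1 and E0del/+ replicate 2, and at 4.89 and 3.60 CPM in those of E0del/+ replicate 3 and WT replicate 2. In SkM of the same mice it was at 364, 397, 278, 0.422 and 0.343 CPM. *Ddx3y*, on the Y chromosome, was at 109 to 114 CPM in LV of E0del/+ replicate 3 and WT replicate 2. WT SkM replicate 1, high in *Xist*, held 12.5 CPM of *Ddx3y*, against 0.384 CPM in LV of that mouse.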
